A study of Mus musculus with 48 samples.

Results

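Cortical RNA of 5xFAD + PLX5622 mice was set against that of PLX5622 mice, which are wild type and ate the same chow, to ask which effects of the 5xFAD transgenes remain once microglia have been depleted. The comparison takes 8 of the 48 libraries in the series, 4 per genotype, and every gene that reached 0.2 RPKM in at least 4 libraries, 15975 of the 16014 in the table. RPKM is the number of reads of a gene scaled to its length in kilobases and to the size of the library. All animals were C57BL/6, and both genotypes had PLX5622 at 1200 ppm in their chow between 1.5 and 7 months of age. The transgenes of 5xFAD mice, human APP with mutations of familial Alzheimer's disease among them, are driven by the mouse Thy1 promoter, which is active in neurons. Untreated 5xFAD and Wild-type cortices, 4 of each at the same age, are set beside them below and share no library with the treated comparison. The labels do not give the sex of the animals, and whether the regions of equal replicate number came from the same animal is not stated there either.

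Microglia are the resident macrophages of the brain, and they need signalling through CSF1R, the receptor for CSF1 and IL-34, to survive. PLX5622 inhibits CSF1R and so removes most of them. In 5xFAD cortex microglia gather around deposits of Aβ, the peptide cut from APP by the β- and γ-secretases, and switch on a set of genes for phagocytosis, lipid handling and lysosomal digestion, while nearby astrocytes become reactive and make the filament protein GFAP. In bulk tissue, fewer cells of a type and less RNA per cell cannot be told apart.

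The 8 libraries held 6.19 M to 11.78 M reads, and the 48 libraries 6.19 M to 16.02 M. The drug left little microglial RNA. The summed level of 32 homeostatic microglial genes was 41.5 to 67.5 RPKM in 5xFAD + PLX5622 cortex against 471 to 757 RPKM in untreated 5xFAD cortex, and 18.7 to 53.8 RPKM in PLX5622 cortex against 267 to 297 RPKM in Wild-type cortex. A pair of libraries stood apart. Replicate 1 of 5xFAD + PLX5622 was the only treated cortex with high Xist, 73.1 RPKM against 0.0516 to 1.31 in the other 3 of its group and 0.0475 to 0.792 in PLX5622, and the only one with low Ddx3y, a Y-linked gene (0.131 RPKM against 15.1 to 20.8 in the others of its group and 18.4 to 21.9 in PLX5622). Replicate 1 of PLX5622 kept more microglial RNA than the rest of its group, a homeostatic sum of 53.8 RPKM against 18.7 to 22.3. Several results changed without one of these libraries, and their values without it are given beside them.

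Under PLX5622, 10 genes were called between the genotypes at a limma adjusted p below 0.05, all higher in 5xFAD + PLX5622, which is 0.0626% of the genes tested. They included the transgene components App and Thy1, 5 genes of myeloid cells (Tbxas1, Ccl6, Cst7, Mpeg1 and Ly86), the astrocyte gene Gfap, and Plpp2, a phosphatase of lipid phosphates. Limma called 0 genes lower, with 206 lower at an unadjusted p below 0.05, and voom on the recovered reads called 3 higher and 0 lower. Adjusting p over the study's 15 comparisons and this one together called 96 higher and 12 lower, and array weights called 76 in all. At an unadjusted p below 0.05, 698 genes were higher (4.37% of those tested) and 206 lower (1.29%). The 4 values of each group did not overlap for 519 higher genes (3.25%) and 488 lower genes (3.05%), and the median log2 fold change of all genes was 0.006. All 10 called genes were among those without overlap. Each therefore gave p = 0.0286 in an exact two-sided permutation test, the smallest that 4 against 4 libraries allow. Any gene without overlap gives this value, so it adds nothing to the lack of overlap. Fold changes here and below are on the log2(RPKM + 0.1) scale and understate the change of genes near 0.

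**Figure D1:**
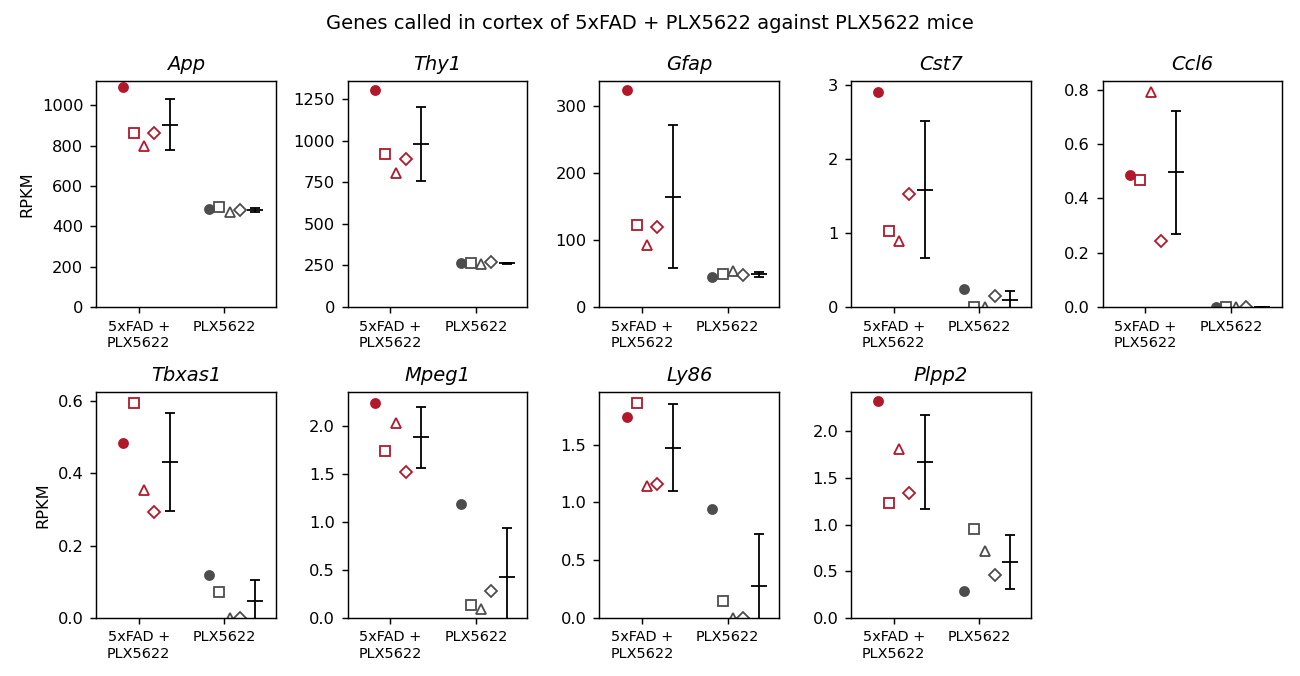
RPKM (y axis, linear from 0) of 9 called genes in each library of 5xFAD + PLX5622 cortex (red) and PLX5622 cortex (grey), with marker shape for the replicate number and a bar for the mean and SD of 4 libraries. The groups overlap in no panel, and replicate 1 of 5xFAD + PLX5622 is far above the others for Gfap (323 RPKM).

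The transgene components had small p-values. Thy1 (Entrez 21838, chromosome 9, 44043384 to 44048579 on GRCm38), whose promoter and flanking sequence drive the transgenes, had 1307, 921, 806 and 892 RPKM in 5xFAD + PLX5622, against 263, 262, 258 and 269 RPKM in PLX5622. Every 5xFAD + PLX5622 library exceeded every PLX5622 library, and the PLX5622 values lay close together (981 ± 222.5 against 263 ± 4.56 RPKM, SD, n = 4 each). Its log2 fold change was 1.87, with an SE of 0.20 and a limma adjusted p of 1.71e-07. App (chromosome 16, 84952666 to 85175255), the precursor of Aβ, had 1089, 864, 800 and 861 RPKM in 5xFAD + PLX5622, against 484, 495, 472 and 480 RPKM in PLX5622. The groups were again apart (log2 fold change 0.89, SE 0.14, limma adjusted p = 5.43e-04). The table gives 1 value for the transgene and the mouse gene together. For both genes the highest 5xFAD + PLX5622 library was replicate 1, and the mean level with the drug was 108% (App) and 110% (Thy1) of that in untreated 5xFAD cortex, or 101% and 98.1% without that library.

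App and Thy1 were called under all 36 settings that were run, and Ccl6 and Tbxas1 when any of the 8 treated libraries was left out. Under the same 8 omissions Cst7 and Plpp2 were called in 4, Mpeg1 and Gfap in 2 and Ly86 in 1. By voom on the recovered reads Ccl6, Tbxas1, Cst7, Mpeg1, Ly86, Gfap and Plpp2 were not called, and only transgene components were. Without replicate 1 of 5xFAD + PLX5622, 6 genes were called, 5 of the 10 among them. Without replicate 2 of PLX5622 also 6, all of the 10, and without replicate 1 of PLX5622, 25, of which 8 were of the 10. Without replicate 1 of 5xFAD + PLX5622 the log2 fold change was 1.73 for Thy1 and 0.80 for App, and Cst7 (2.83, limma adjusted p = 0.197), Mpeg1 (2.28, 0.146) and Ly86 (2.69, 0.165) were no longer called.

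The myeloid genes were higher in 5xFAD + PLX5622, but at levels near the floor of the assay. Cst7, the gene of cystatin F, an inhibitor of lysosomal proteases that marks plaque-associated microglia, had 2.91, 1.02, 0.887 and 1.52 RPKM in 5xFAD + PLX5622, against 0.238, 0, 0 and 0.152 RPKM in PLX5622. These correspond to 33, 6, 10 and 13 reads against 2, 0, 0 and 1 reads. The groups were apart, with replicate 1 of 5xFAD + PLX5622 the highest (log2 fold change 3.16, SE 0.62, limma adjusted p = 0.0204), and the 5xFAD + PLX5622 mean was 8.97% of that in untreated 5xFAD. Ccl6, a chemokine of myeloid cells, had 0.484, 0.469, 0.792 and 0.241 RPKM in 5xFAD + PLX5622, against 0 RPKM in all 4 PLX5622 libraries. With 28 reads over the 5xFAD + PLX5622 group and 0 over the PLX5622 group, it was at least 7.10-fold higher, taking 3 reads over the group as the floor (limma adjusted p = 0.00199). Tbxas1, thromboxane A synthase, had 0.483, 0.596, 0.354 and 0.292 RPKM in 5xFAD + PLX5622, against 0.118, 0.0717, 0 and 0 RPKM in PLX5622. Its reads numbered 11, 7, 8 and 5 against 2, 1, 0 and 0 (log2 fold change 1.90, SE 0.30, limma adjusted p = 6.94e-04).

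Mpeg1, which encodes the pore-forming protein perforin-2 of macrophages, had 2.24, 1.75, 2.04 and 1.52 RPKM in 5xFAD + PLX5622, against 1.19, 0.131, 0.0904 and 0.278 RPKM in PLX5622. Ly86, the MD-1 partner of the receptor CD180, had 1.74, 1.86, 1.14 and 1.16 RPKM in 5xFAD + PLX5622, against 0.941, 0.142, 0 and 0 RPKM in PLX5622. For both genes the PLX5622 library nearest to the other genotype was replicate 1, the one that kept microglial RNA (log2 fold change 2.36 for Mpeg1 and 2.78 for Ly86, limma adjusted p = 0.0222 and 0.0264). The same library decided the calls of several further microglial genes. C1qa, which encodes part of C1q, the complement component that microglia supply in brain, had 4.42, 2.80, 3.88 and 3.31 RPKM in 5xFAD + PLX5622, against 3.36, 0, 0 and 0.417 RPKM in PLX5622. Replicate 1 of PLX5622 fell inside the 5xFAD + PLX5622 range, and the log2 fold change of 3.32 had a limma adjusted p of 0.0849. Without that library it was 4.40, with a limma adjusted p of 3.00e-04. Without replicate 1 of 5xFAD + PLX5622 it was 3.22 (limma adjusted p = 0.285).

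Csf1r itself had 1.93, 1.78, 1.603 and 0.984 RPKM in 5xFAD + PLX5622, against 1.785, 0.0732, 0.101 and 0.116 RPKM in PLX5622. Again replicate 1 of PLX5622 lay among the 5xFAD + PLX5622 values and the other 3 far below them (log2 fold change 2.24, limma adjusted p = 0.177, and 3.05 with limma adjusted p = 9.13e-04 without that library). Without replicate 1 of 5xFAD + PLX5622 the log2 fold change of Csf1r was 2.13 (limma adjusted p = 0.517). The 5xFAD + PLX5622 mean of Csf1r was 5.14% of that in untreated 5xFAD cortex. The lysosomal protease Ctss had 7.31, 4.72, 4.07 and 2.90 RPKM in 5xFAD + PLX5622, against 4.24, 0, 0.386 and 0.333 RPKM in PLX5622, with the same library inside the range of the other genotype (limma adjusted p = 0.0849, and 3.26e-04 without that library). For Ctss the limma adjusted p was 0.323 without replicate 1 of 5xFAD + PLX5622.

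Across the 32 homeostatic microglial genes, 22 were higher and 0 lower at an unadjusted p below 0.05, 30 had a positive fold change, and 1 (Ly86) was called. Their median log2 fold change was 1.14, against 0.006 over all genes tested. Without replicate 1 of PLX5622, 11 of the 32 were called and all 32 were positive, with a median of 1.52. Without replicate 1 of 5xFAD + PLX5622, 0 were called by limma, 19 were higher at an unadjusted p below 0.05, and the median was 0.92. Fold changes were uneven among microglial genes, and 3 markers by which microglia are usually recognised, chosen after their values were seen, had small differences. Other such markers had larger log2 fold changes, none called: C1qa 3.32, Csf1r 2.24, Cx3cr1 1.53 and Siglech 0.89. The membrane protein Tmem119 had 0.417, 0.485, 0.294 and 0.443 RPKM in 5xFAD + PLX5622, against 0.788, 0.613, 0.376 and 0.216 RPKM in PLX5622 (log2 fold change −0.14). The purine receptor P2ry12 had 1.00, 1.01, 0.673 and 0.494 RPKM in 5xFAD + PLX5622, against 0.853, 0.425, 0.335 and 0.386 RPKM in PLX5622 (0.60). Aif1, which encodes the stain target IBA1, had 0.993, 0.192, 0.6998 and 1.45 RPKM in 5xFAD + PLX5622, against 0.804, 0.649, 0.149 and 0.688 RPKM in PLX5622 (0.39). The groups overlapped for all 3, and the sign turned without replicate 1 of PLX5622 for Tmem119 (0.09) and without replicate 3 of PLX5622 for Aif1 (−0.03). Without replicate 1 of PLX5622 the value of P2ry12 was 0.85 (limma unadjusted p = 0.0381, limma adjusted p = 0.752).

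Of the 31 plaque-associated microglial genes tested, 2 were called (Cst7 and Ccl6), 9 were higher and 0 lower at an unadjusted p below 0.05, and 10 had groups that did not overlap, all higher. Their median log2 fold change was 0.37, and without replicate 1 of 5xFAD + PLX5622 1 was called and 6 were higher at that p. The sum of this list did not fall with the drug in wild-type animals (mean 1789 RPKM in PLX5622 and 1729 RPKM in Wild-type cortex). It is therefore not a measure of microglia alone. Itgax, the integrin chain CD11c, had 0.281, 0.209, 0.152 and 0.0861 RPKM in 5xFAD + PLX5622, against 0.0583, 0.0705, 0 and 0 RPKM in PLX5622, and did not pass (limma adjusted p = 0.369). The phagocytic receptor Trem2 had 3.19, 2.17, 2.73 and 0.531 RPKM in 5xFAD + PLX5622, against 0.862, 0.782, 0.240 and 0.277 RPKM in PLX5622, where replicate 4 of 5xFAD + PLX5622 overlapped the other group (log2 fold change 1.73, limma adjusted p = 0.342). Among 22 complement genes 9 were higher and 0 lower at an unadjusted p below 0.05 and 0 were called (median 0.38). Without replicate 1 of PLX5622 limma called 4 of them, and without replicate 1 of 5xFAD + PLX5622 it called 0. Genes of the macrophages at the borders of the brain did not move with these lists: 0 of 10 had an unadjusted p below 0.05, and their summed level was 1.78 to 4.46 RPKM in 5xFAD + PLX5622 and 3.36 to 4.86 RPKM in PLX5622. Only 2 of the 15 lymphocyte and neutrophil markers listed were tested, with 0 at an unadjusted p below 0.05.

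**Figure D2:**
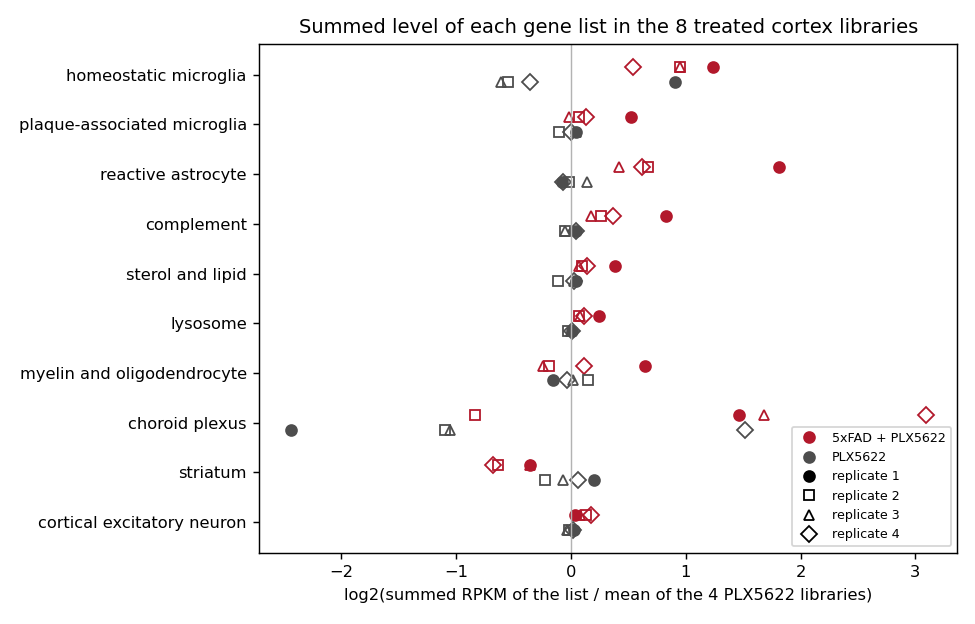
Summed RPKM of 10 gene lists in each treated cortex library, as log2 of its ratio to the mean of the 4 PLX5622 libraries (x axis), with 5xFAD + PLX5622 in red and PLX5622 in grey and marker shape for the replicate number. Replicate 1 of PLX5622 sits with the 5xFAD + PLX5622 libraries for homeostatic microglia (53.8 RPKM), replicate 1 of 5xFAD + PLX5622 stands apart for reactive astrocytes (597 RPKM), and the choroid plexus sums are scattered.

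Promoter sequence is given for a called astrocyte gene, a called myeloid gene and a sterol gene described below, chosen because each window holds a motif of a factor known for that group. The window of Cst7, another called myeloid gene, was searched for the PU.1 motif used here, held 0 matches and is not shown. Each window shown is the 300 bases from 250 before to 50 after a RefSeq transcript start on GRCm38.p6, 5′ to 3′ on the gene's strand, with matches of the motif in capitals.
Gfap promoter (chr11:102897151-102897450, minus strand, TTCNNNGAA of STAT factors): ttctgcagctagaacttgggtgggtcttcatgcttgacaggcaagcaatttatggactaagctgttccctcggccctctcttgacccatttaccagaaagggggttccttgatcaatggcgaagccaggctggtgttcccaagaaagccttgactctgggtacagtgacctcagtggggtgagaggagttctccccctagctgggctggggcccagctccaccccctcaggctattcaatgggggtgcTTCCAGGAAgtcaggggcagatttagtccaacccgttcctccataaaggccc
Tbxas1 promoter (chr6:38918736-38919035, plus strand, GAGGAA of PU.1): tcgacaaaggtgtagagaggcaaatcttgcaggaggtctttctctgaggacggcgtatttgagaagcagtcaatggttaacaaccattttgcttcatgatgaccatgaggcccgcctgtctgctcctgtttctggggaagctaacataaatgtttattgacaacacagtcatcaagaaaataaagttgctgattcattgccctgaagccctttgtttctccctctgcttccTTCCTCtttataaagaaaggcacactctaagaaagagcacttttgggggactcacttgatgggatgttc
Insig1 promoter (chr5:28071162-28071461, plus strand, CCAAT of NF-Y): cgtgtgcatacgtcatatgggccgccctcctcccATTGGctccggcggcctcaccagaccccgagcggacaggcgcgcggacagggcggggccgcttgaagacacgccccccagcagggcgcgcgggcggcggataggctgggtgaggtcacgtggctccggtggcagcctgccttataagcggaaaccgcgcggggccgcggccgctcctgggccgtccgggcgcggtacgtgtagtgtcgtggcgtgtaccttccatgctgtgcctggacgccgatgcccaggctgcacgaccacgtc

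Both strands were searched, so a capital run may be the reverse complement of the letters given. The STAT motif was present in 8.30% of 32851 promoter windows of the genome and in 5 of 34 windows of 26 matched reactive astrocyte genes. The PU.1 core was present in 28.3% of all windows, in 16 of 27 windows of 23 matched homeostatic microglial genes and in 13 of 32 windows of 27 matched plaque-associated genes. CCAAT was present in 37.4% of all windows and in 11 of 19 windows of 13 matched sterol and lipid genes. A match is only a run of letters, and binding was not measured.

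Of 28 reactive astrocyte genes, 19 had a positive and 9 a negative fold change in 5xFAD + PLX5622, and their summed level was highest in replicate 1 of that group, 597 RPKM against 228 to 271 RPKM in its other 3 libraries. Gfap (chromosome 11, 102887336 to 102897200) had 323, 123, 92.3 and 119 RPKM in 5xFAD + PLX5622, against 44.4, 48.8, 53.1 and 47.6 RPKM in PLX5622. All 4 libraries of 5xFAD + PLX5622 exceeded all of PLX5622 (164 ± 107 against 48.5 ± 3.60 RPKM, SD, n = 4 each). Its log2 fold change was 1.57, with an SE of 0.32 and a limma adjusted p of 0.0264. The call was lost without replicate 1 of 5xFAD + PLX5622 (1.19, limma adjusted p = 0.322) and without replicate 1 of PLX5622 (1.53, limma adjusted p = 0.0558), while the groups stayed apart. Serpina3n, a secreted protease inhibitor of reactive astrocytes, had 54.8, 18.7, 11.9 and 11.6 RPKM in 5xFAD + PLX5622, against 5.29, 8.57, 6.89 and 8.15 RPKM in PLX5622. Its groups did not overlap either, and it did not pass (log2 fold change 1.44, limma adjusted p = 0.186). Complement C4b had 57.0, 18.2, 15.97 and 21.0 RPKM in 5xFAD + PLX5622, against 10.8, 11.2, 14.8 and 11.7 RPKM in PLX5622 (1.01, limma adjusted p = 0.545).

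Of these 28 genes, 1 was called (Gfap), 9 were higher and 0 lower at an unadjusted p below 0.05, and 7 did not overlap, all higher. The median log2 fold change was 0.30, and 0.19 with 5 genes at an unadjusted p below 0.05 without replicate 1 of 5xFAD + PLX5622. The sphingosine-1-phosphate receptor S1pr3 (log2 fold change 0.70) and the asparaginase Aspg (1.08) were in this list with groups apart. Gfap, C4b and Serpina3n had 5xFAD + PLX5622 means of 183%, 199% and 210% of those in untreated 5xFAD cortex, and of 124%, 131% and 122% without replicate 1 of 5xFAD + PLX5622. Of the wild-type animals, Gfap had 48.5 ± 3.60 RPKM in PLX5622 and 20.5 ± 1.45 RPKM in Wild-type cortex (SD, n = 4 each). Genes of homeostatic astrocytes had a median log2 fold change of 0.05, with 0 of 17 at an unadjusted p below 0.05. Replicate 1 of 5xFAD + PLX5622 was also highest in myelin genes, with a sum of 1701 RPKM against 915 to 1177 RPKM in the other 3 and 972 to 1204 RPKM in PLX5622, and the part of cell composition in its astrocyte values was not tested.

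Genes of sterol and lipid metabolism were higher as a group by small amounts, none past the adjusted threshold. Insig1, which holds the transcription factor SREBP and its partner SCAP in the endoplasmic reticulum and is itself induced by SREBP, had 28.4, 27.5, 24.1 and 27.1 RPKM in 5xFAD + PLX5622, against 16.6, 16.4, 19.2 and 20.4 RPKM in PLX5622. No value overlapped (0.56, limma adjusted p = 0.232). Sqle, squalene epoxidase, had 35.5, 29.9, 32.6 and 35.1 RPKM in 5xFAD + PLX5622, against 22.6, 23.6, 24.1 and 24.9 RPKM in PLX5622 (0.48, limma adjusted p = 0.275). Fdps, which makes farnesyl diphosphate, had 16, 13.7, 14.6 and 14.7 RPKM in 5xFAD + PLX5622, against 9.63, 8.55, 11.4 and 10.6 RPKM in PLX5622 (0.55, limma adjusted p = 0.232).

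Of 22 sterol and lipid genes, 14 were higher and 0 lower at an unadjusted p below 0.05, 20 were positive and 11 had groups that did not overlap, all higher. The median log2 fold change was 0.30, and 0.25 with 11 genes at an unadjusted p below 0.05 without replicate 1 of 5xFAD + PLX5622. For the 3 genes above, the 5xFAD + PLX5622 libraries lay close together. The sum of all 22 genes was highest in replicate 1, with 1751, 1437, 1413 and 1486 RPKM in 5xFAD + PLX5622, against 1389, 1242, 1372 and 1375 RPKM in PLX5622. In untreated cortex the same comparison gave log2 fold changes of 0.14 for Insig1, 0.15 for Sqle and 0.11 for Fdps, and the list median was 0.13. The difference between the treated and untreated effects was tested for each gene, and none of the 3 passed (log2 differences of 0.42, 0.33 and 0.45). In treated hippocampus the effect was 0.40 for Insig1, 0.53 for Sqle and 0.66 for Fdps, where limma called Fdps (adjusted p = 0.0171), and in treated thalamus −0.19, −0.13 and 0.04.

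**Figure D3:**
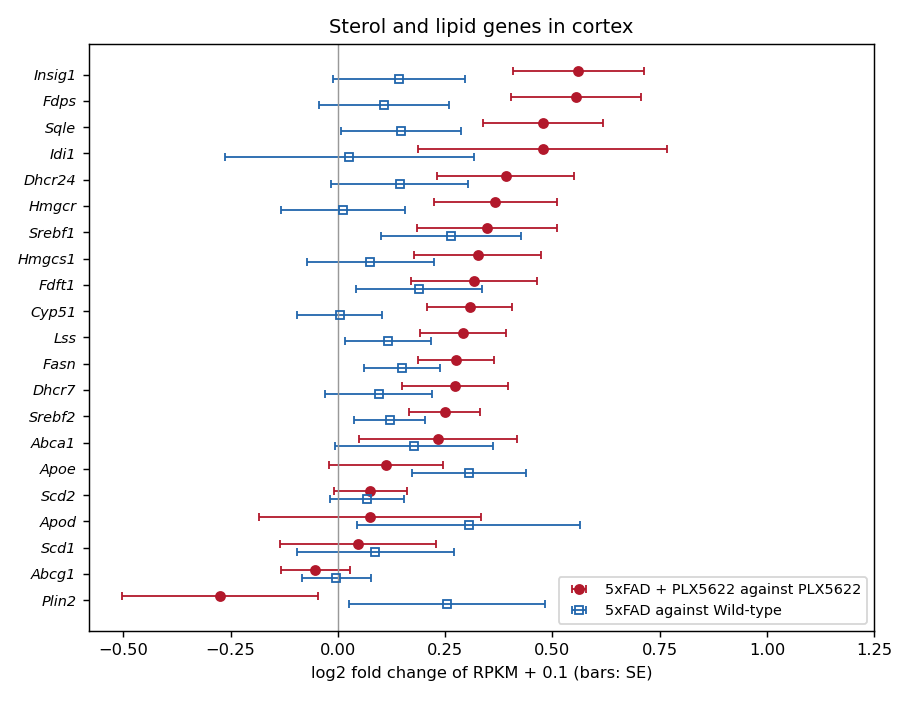
Log2 fold change of 21 sterol and lipid genes in cortex with PLX5622 (red, 5xFAD + PLX5622 against PLX5622) and without it (blue, 5xFAD against Wild-type), with bars for the SE of the fit. With the drug 19 of the 21 are above 0, and Insig1 (0.56 with the drug and 0.14 without it) and Sqle (0.48 and 0.15) are among those farther from 0 with it.

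Genes of the machinery that cuts APP differed little apart from the transgenes. Of 16 genes of APP processing 4 were higher and 0 lower at an unadjusted p below 0.05, App among them. Bace2, a protease related to β-secretase, had 1.605, 1.53, 1.22 and 1.42 RPKM in 5xFAD + PLX5622, against 0.847, 1.06, 0.769 and 1.09 RPKM in PLX5622 (log2 fold change 0.57, limma adjusted p = 0.834), without overlap. Aph1a, a γ-secretase subunit, had a log2 fold change of 0.38 with overlapping groups. Among 24 genes of Aβ degradation and clearance 2 were higher and 3 lower at an unadjusted p below 0.05, with a median log2 fold change of 0.07. Mme, which encodes the Aβ-degrading peptidase neprilysin, was the largest of the lower ones, with 2.38, 3.10, 2.02 and 2.75 RPKM in 5xFAD + PLX5622, against 6.03, 6.49, 4.96 and 5.96 RPKM in PLX5622. The groups were far apart, but the SE of the fit, which pools the spread over all 48 libraries, was 0.52 and the difference did not pass (log2 fold change −1.17, limma adjusted p = 0.817). In untreated cortex Mme averaged 2.49 ± 1.59 RPKM in 5xFAD and 3.87 ± 0.999 RPKM in Wild-type (SD, n = 4 each).

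Markers of striatum, which lies under the cortex, differed in the same direction as Mme: the summed level of 12 striatal genes was 390, 321, 389 and 311 RPKM in 5xFAD + PLX5622, against 572, 426, 475 and 518 RPKM in PLX5622. All 12 had a negative fold change (median −0.57), 8 of them without overlap, and 0 had an unadjusted p below 0.05 in limma. The phosphodiesterase Pde10a, for example, had 47.2, 35.1, 42.5 and 35.2 RPKM in 5xFAD + PLX5622, against 66.7, 57.9, 60.5 and 72.0 RPKM in PLX5622. The part of dissection in the Mme values was not tested. Choroid plexus markers ran the other way, with 12 of 12 positive (median 1.33) and sums of 258, 52.4, 300.1 and 796 RPKM in 5xFAD + PLX5622, against 17.3, 43.6, 45.2 and 268 RPKM in PLX5622. The groups overlapped. Ttr, transthyretin, which binds Aβ and is made by choroid plexus, followed the sums with 236, 45.8, 278 and 743 RPKM in 5xFAD + PLX5622, against 11.4, 37.0, 36.8 and 246.5 RPKM in PLX5622 (limma adjusted p = 0.940).

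Of 27 genes at Alzheimer's disease risk loci 5 were higher and 1 lower at an unadjusted p below 0.05 and 0 were called. Clu, the extracellular chaperone clusterin that astrocytes secrete, had 434, 301, 288 and 328 RPKM in 5xFAD + PLX5622, against 262, 249, 243 and 272 RPKM in PLX5622. The groups did not overlap (log2 fold change 0.38, limma adjusted p = 0.287). The myeloid risk genes Trem2 (1.73), Spi1 (1.50), which encodes PU.1, and Cd33 (1.28), a sialic acid receptor, had larger fold changes at low levels.

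Interferon and antigen presentation genes, whose medians were positive in untreated cortex, had medians near 0 under the drug. Of 25 interferon response genes 13 were positive and 12 negative, 1 was higher and 3 lower at an unadjusted p below 0.05 (0 and 1 without replicate 1 of PLX5622), and their median log2 fold change was 0.02 with the drug and 0.54 without it. Parp14, an interferon-induced ADP-ribosyltransferase, had 0.414 to 0.551 RPKM in 5xFAD + PLX5622, against 0.614 to 0.939 RPKM in PLX5622, without overlap (−0.59, limma adjusted p = 0.841). The antiviral gene Rsad2 (−0.64) and Ifi44 (−0.90) had overlapping groups, and so had Ifi27 (0.48), the gene that was higher. The 17 MHC class I genes had 0 members at an unadjusted p below 0.05 and a median of 0.06, against 0.67 in untreated cortex, with 13 positive and 4 negative (8 positive without replicate 1 of 5xFAD + PLX5622). Whether these list medians differ between treated and untreated cortex was not tested. The 26 lysosomal genes were positive in 21 cases (median 0.09, 5 higher and 0 lower at an unadjusted p below 0.05), and without replicate 1 of 5xFAD + PLX5622 17 were positive and 1 was higher at that p. Ctsd, the protease cathepsin D, had 130, 107, 113 and 114 RPKM in 5xFAD + PLX5622, against 87.4, 76.4, 84.2 and 86.5 RPKM in PLX5622, with groups apart (0.47, limma adjusted p = 0.565).

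Medians of the lists of neurons and vessels stayed near 0. The median log2 fold change was −0.04 for 21 genes of cortical excitatory neurons, −0.01 for 18 of interneurons, 0.05 for 20 presynaptic and 0.01 for 20 postsynaptic genes, with 0 genes at an unadjusted p below 0.05 in each. The same count was 0 of 22 for endothelial genes, 0 of 21 for vascular matrix and fibroblast genes and 0 of 16 for myelin and oligodendrocyte genes, against 4.37% higher and 1.29% lower over all genes. Pericyte and smooth muscle genes had 1 of 16 higher, and oligodendrocyte precursor genes 1 of 12. Without overlap of the groups were 3 higher and 1 lower cortical excitatory genes, and 1 higher and 2 lower postsynaptic genes. Among interneuron genes 1 was lower without overlap, and among presynaptic genes 0 were apart. Over all genes the shares were 3.25% higher and 3.05% lower. The fit pools the spread over all 48 libraries, so a count of 0 does not show that these genes were unchanged. Immediate early genes were positive in 17 of 21 cases (median 0.22), with Per1 at 23.9, 23.3, 25.9 and 27.3 RPKM in 5xFAD + PLX5622, against 21.97, 16.9, 18.3 and 18.9 RPKM in PLX5622 (0.40, limma adjusted p = 0.551). Unfolded protein and stress response genes had 3 of 21 higher at an unadjusted p below 0.05 (median 0.14), and 1 of 21 when replicate 1 of either group was left out.

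**Figure D4:**
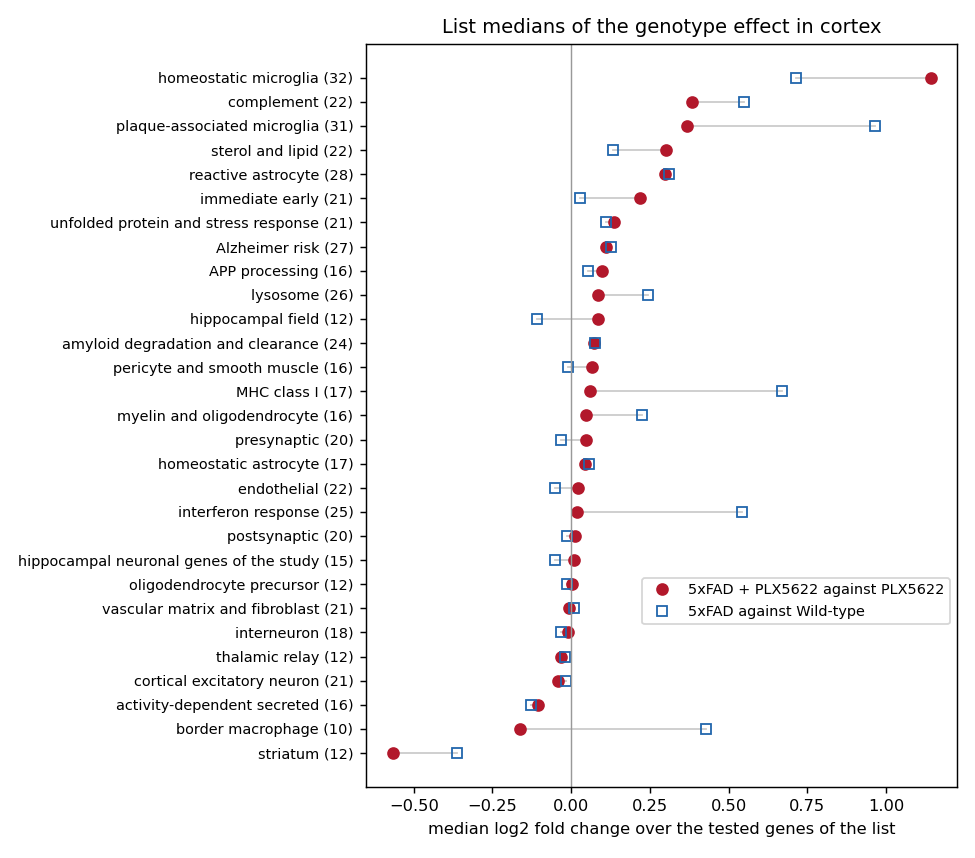
Median log2 fold change (x axis) of 29 gene lists in cortex, with the number of genes tested in brackets, for 5xFAD + PLX5622 against PLX5622 (red circles) and 5xFAD against Wild-type (blue squares). Choroid plexus (1.33 with the drug) is not drawn, and of the lists shown homeostatic microglia are highest with the drug (1.14 against 0.72 without it), and the medians for MHC class I (0.06 against 0.67) and interferon response (0.02 against 0.54) are near 0 with the drug.

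Without the drug, 48 genes were called between 5xFAD and Wild-type cortex, all higher in 5xFAD (0.3% of those tested), and their values in the treated libraries are an independent measure of the same genotype. Of the 48, 7 were called under PLX5622 (App, Thy1, Cst7, Ccl6, Tbxas1 and Gfap among them), 25 were higher and 0 lower at an unadjusted p below 0.05, 43 were positive and 16 did not overlap, all higher. Their median log2 fold change was 0.60 with the drug, and 1.51 without it, where they were chosen for being high. Without the transgene components the 45 other genes had a median of 0.53 with the drug, 22 of them higher at an unadjusted p below 0.05. The remaining 3 of the 10 genes called under the drug, Mpeg1, Ly86 and Plpp2, were not called in untreated cortex (log2 fold changes 1.69, 1.34 and 0.34). Plpp2 had 2.32, 1.23, 1.81 and 1.33 RPKM in 5xFAD + PLX5622, against 0.285, 0.948, 0.714 and 0.457 RPKM in PLX5622, without overlap (log2 fold change 1.40, limma adjusted p = 0.0109). The call of Plpp2 was lost without replicate 1 of PLX5622 (1.14, limma adjusted p = 0.0578) and without replicate 1 of 5xFAD + PLX5622 (1.23, limma adjusted p = 0.146).

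Among the 15 genes with the largest untreated effects, the values under the drug ranged from similar to much smaller. Tbxas1 (1.90 with and 1.83 without the drug) and Ccl6 (2.50 and 2.72) had similar log2 fold changes, as had Gfap (1.57 and 2.01). Without replicate 1 of 5xFAD + PLX5622 the Gfap value with the drug was 1.19. Tbxas1 and Ccl6 were low in both treated groups, with 5xFAD + PLX5622 means of 18.3% and 8.80% of those in untreated 5xFAD. Ccl6 had no reads in PLX5622, so the size of its fold change with the drug depends on the pseudocount. Clec7a, the β-glucan receptor dectin-1 of plaque-associated microglia, had 0.305, 0.222, 0.499 and 0.0507 RPKM in 5xFAD + PLX5622, against 0.154, 0, 0.0574 and 0 RPKM in PLX5622. These overlapped, with a log2 fold change of 1.22, compared with 4.22 in untreated cortex. Itgax had 1.09 with and 3.68 without the drug, the chemokine Ccl3 1.01 and 3.44, and Ch25h, which makes 25-hydroxycholesterol, 0.68 and 2.66. Lysozyme Lyz2 had 0.48 and 2.23, and the lipopolysaccharide receptor Cd14 0.25 and 1.77. The value of Cd14 with the drug turned to −0.25 with a pseudocount of 0.01 and to −0.04 by voom. Of the 48, 5 had a negative fold change under the drug, among them Anxa3 (−0.15) and Plek (−0.09), both chosen after their values were seen.

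The difference between the effects with and without the drug was tested for each gene, and limma called 0 of 15975 (0.0%), with 183 higher and 223 lower at an unadjusted p below 0.05, and 0 by voom. Itgax came nearest (log2 difference −2.59, SE 0.48, limma adjusted p = 0.0561). With a pseudocount of 1, which weighs genes near 0 less, 4 genes were called with a smaller effect under the drug, among them Itgax (−1.47), Clec7a (−1.87) and Cst7 (−2.51). These genes were low in both treated groups, with a 5xFAD + PLX5622 mean that was 6.12% of that in untreated 5xFAD for Clec7a and 7.03% for Itgax.

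**Figure D5:**
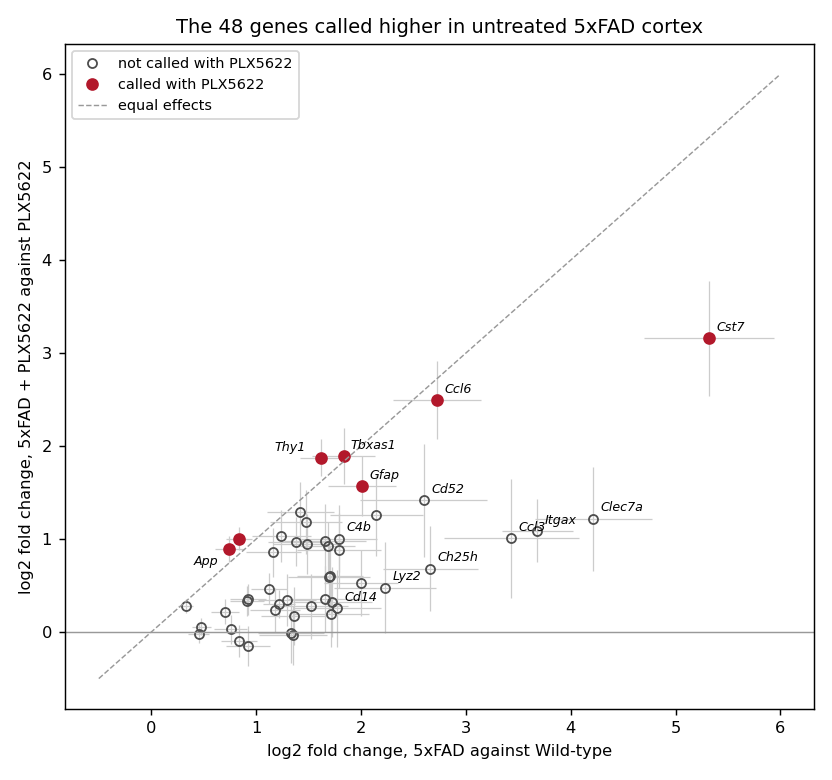
Log2 fold change of the 48 genes called in untreated cortex, 5xFAD + PLX5622 against PLX5622 (y axis) and 5xFAD against Wild-type (x axis), with bars for the SE and filled red points for the 7 genes also called with the drug. Most points lie under the dashed line of equal effects, which includes the choice of genes by their untreated value, and the transgene components, Tbxas1, Ccl6 and Gfap lie near it.

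The same genotype comparison under the drug called 129 genes in hippocampus (0.808%), 122 higher and 7 lower, and 6 in thalamus (0.0376%). The paper describes the thalamus samples as thalamus and striatum together. The difference of the effect between cortex and hippocampus called 0 genes in limma (0.0%), with 465 higher and 840 lower at an unadjusted p below 0.05, and that between cortex and thalamus called 0 (0.0%), with 830 higher and 832 lower. Voom called 0 in both. Libraries of equal number resembled each other across regions in haemoglobin RNA: Hbb-bs had 26.5, 37.7, 25.2 and 89.5 RPKM in 5xFAD + PLX5622 cortex, 25.6, 35.8, 24.4 and 98.6 RPKM in 5xFAD + PLX5622 hippocampus and 22.2, 39.9, 23.5 and 89.5 RPKM in 5xFAD + PLX5622 thalamus. The fit took the libraries as independent, and with the number within a group as a random block over regions limma again called 0 in both. The correlation within blocks was estimated at 0.026 for all genes together. The blocked fit was therefore close to the first, and it cannot show what pairing by animal would change. Homeostatic microglial genes had a median log2 fold change of 1.14 in cortex, 2.66 in hippocampus and 0.27 in thalamus, and plaque-associated genes 0.37, 0.59 and 0.12. Replicate 1 of PLX5622 was highest of its group in Csf1r in the other regions too. It had 1.30 RPKM against 0.238 to 0.470 in hippocampus, and 2.50 RPKM against 0.0638 to 0.21 in thalamus. The regional medians include these libraries, and their part in the regional differences was not tested. Cst7 had log2 fold changes of 3.16, 5.07 and 1.27 in the 3 regions. Of the transgene components, Thy1 had a log2 fold change of 1.87 in cortex, 2.06 in hippocampus and 0.67 in thalamus, where it had 515, 343, 451 and 474 RPKM in 5xFAD + PLX5622, against 265, 262, 273 and 311 RPKM in PLX5622. The cortex minus thalamus difference of Thy1 was 1.20 and did not pass (limma adjusted p = 0.219). Gfap had 1.57 in cortex, 1.14 in hippocampus and 1.76 in thalamus.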

How the data were processed

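RNA from cortex, hippocampus and thalamus of Wild-type, PLX5622, 5xFAD and 5xFAD + PLX5622 mice was sequenced in 48 libraries, 4 per group and region. Per the paper, the region labelled thalamus was dissected together with striatum. Per the study's methods and processing notes, the authors ran STAR against mm10 on single-end reads and took counts per gene from featureCounts. The authors then dropped poorly covered genes, normalized with edgeR and deposited 1 table of RPKM values. The Methods describe KAPA HyperPrep libraries with RiboErase and the sample records a TruSeq kit, so how ribosomal RNA was removed is uncertain. Groups were taken from the sample titles and records. Reads were recovered from the steps of low RPKM values, and 16005 of 16014 genes gave whole reads in every library within 0.05 reads (99.94%). The 24 symbols stored as dates were renamed from their Entrez numbers.

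RPKM values were turned into log2(RPKM + 0.1), and genes with at least 0.2 RPKM in at least 4 libraries were kept. Means of the 12 groups were estimated from all 48 libraries at once in limma (version 3.58.1, under R 4.3.3) with a variance trend. Within each contrast the Benjamini-Hochberg adjusted p had to be below 0.05. The authors' own test was voom with limma, with p adjusted over 15 comparisons together. Single values were compared by exact permutation. Python 3.11.15 with pandas 2.3.3, numpy 2.4.6 and matplotlib 3.10.9 served for tables and plots. The fit was tested on simulated data, where the share of false calls was above the threshold set for the adjusted p.

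The members and the gene lists were chosen with earlier results of these data known. Genes named are the transgene components, every called gene, up to 4 genes of each list by smallest p, the 12 microglial genes that the study plots and the 15 largest rises of untreated cortex, and some items among them are not reported here. Aif1, Anxa3, P2ry12, Plek, Tmem119 and Xist were added after their values were seen. Alternatives were other pseudocounts, filters, scalings, sample sets, variance models, blocks, an Xist covariate, voom on recovered reads, another adjustment and each cortex library left out. Intervals for single shares were not needed, and the counts of reads given for low genes carry counting error besides the spread between libraries.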

Additional observations from a re-analysis of the deposited data

Results flagged for a closer look

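Among 160 groups of 4 values examined (named genes and list sums), 25 held a library far from the other 3 of its group by Dixon's criterion, where chance alone gives about 1 in 20. Replicate 1 of PLX5622 accounted for 11 of these and replicate 1 of 5xFAD + PLX5622 for 8.

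Replicate 1 of 5xFAD + PLX5622 cortex was high in Gfap (323 RPKM against 92.3 to 123 in the other 3), Serpina3n (54.8 against 11.6 to 18.7), C4b (57.0 against 15.97 to 21.0), S1pr3 (4.34 against 2.59 to 2.81), Ifi44 (0.299 against 0.0794 to 0.116) and Xist (73.1 against 0.0516 to 1.31). Its summed level was high for reactive astrocyte genes (597 against 228 to 271 RPKM) and for interferon response genes (79.6 against 60.5 to 63.3 RPKM). It was also the only library of the 8 with low Ddx3y.

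Replicate 1 of PLX5622 cortex was high in the microglial and myeloid genes C1qa (3.36 RPKM against 0 to 0.417), C1qb (3.09 against 0 to 0.425), Ctss (4.24 against 0 to 0.386), Csf1r (1.785 against 0.0732 to 0.116), Mpeg1 (1.19 against 0.0904 to 0.278), Ly86 (0.941 against 0 to 0.142) and Lyz2 (3.11 against 0.537 to 0.742). C3ar1 (0.109) and Cd33 (0.137) were seen in that library and at 0 in the other 3, Xist was 0.792 against 0.0475 to 0.109, and the homeostatic microglial sum was 53.8 against 18.7 to 22.3 RPKM.

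Replicate 4 of 5xFAD + PLX5622 was high in Junb (37.3 RPKM against 17.1 to 19.97) and at 0 for Slc15a3 (0.287 to 0.336 in the others). Replicate 4 of PLX5622 was high in Ttr (246.5 against 11.4 to 37.0), in the choroid plexus sum (268 against 17.3 to 45.2) and in Ly9 (0.0614 against 0 in the others). Replicate 2 of PLX5622 was low in the sterol and lipid sum (1242 against 1372 to 1389 RPKM).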

How the results depend on the processing

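The count of 10 genes under the drug became 3 with a pseudocount of 1, 3 by voom on recovered reads, 17 with only the 16 cortex libraries, 76 with array weights and 108 (96 higher, 12 lower) when adjusted over the study's 15 comparisons and this one together. It was 5 without the 3 cortex libraries with high Xist, 31 without both replicates 1 of the treated groups in all 3 regions, 12 without both in cortex, and 6 to 25 with any 1 cortex library left out. The 48 genes of untreated cortex became 21 with a pseudocount of 0.01, 108 with a pseudocount of 1, 22 with a mean of at least 1 RPKM, 123 with array weights, 114 with the joint adjustment, 13 without the high-Xist libraries, 81 without the replicates 1 in all regions and 20 to 49 with any 1 library left out. The lowest were without 5xFAD replicate 3 (20), 5xFAD replicate 4 (25), Wild-type replicate 4 (26), Wild-type replicate 3 (27) and Wild-type replicate 2 (31). The treatment difference called 4 with a pseudocount of 1, 1 each with quantile normalization, array weights and the Xist covariate, 2 without the replicates 1 in all regions and 0 to 2 with any 1 library left out. The cortex minus hippocampus difference called 38 with array weights, 18 without the replicates 1 in all regions and 0 to 1 with any 1 library left out, and the cortex minus thalamus difference 1 with a pseudocount of 0.01, 2 without the replicates 1 in all regions and 0 with any 1 library left out. The cause of these shifts was not tested.

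The log2 fold change of Cd14, 0.25, was -0.25 with a pseudocount of 0.01, -0.044 by voom and -0.306 to 0.852 with any 1 cortex library left out (lowest without replicate 2 of 5xFAD + PLX5622). That of Tmem119, -0.14, was -0.411 to 0.085 with any 1 library left out (above 0 without replicate 1 of PLX5622) and 0.073 without both replicates 1, in cortex or in all 3 regions. That of Aif1, 0.39, was -0.031 to 0.875 with any 1 library left out (below 0 without replicate 3 of PLX5622).

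Replicate numbers are shared by the groups, but same-numbered libraries of the treated groups deviated together weakly (r = -0.07, 0.13, 0.11 and 0.06 across genes, best with its own number in 1 of 4), so they were taken to share only a number. With the replicate block 7 genes were called under the drug, 41 in untreated cortex, 1 for the treatment difference and 0 for both regional differences. An edgeR quasi-likelihood fit on recovered reads, planned as an alternative, was not run. Counts of 0 to 33 reads per library limit Cst7, Ccl6 and Tbxas1. With 1 treated library left out, Cst7 was called in 4 of 8 fits and Ccl6 and Tbxas1 in all 8. By voom none of these genes was called.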
